A study of Mus musculus with 17 samples.

Results

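Second generation tumour lines were compared with first generation tumour lines of the same study. The lines were chosen by their titles, and they are 10 of the 17 libraries of the series. The series profiled RNA of bone marrow mesenchymal stem cells (MSC), stromal cells that can form bone, cartilage and fat, of tumour lines, and of clones of one such line. All 10 lines come from C57BL/6 mice with the R172H knock-in, an amino acid change in the DNA-binding part of the tumour suppressor p53, so both generations carry the mutant protein and no line with normal p53 is among them. The 4 second generation lines (TL2) were derived from tumours that grew after first generation cells had been injected into a host. The 6 first generation lines (TL1) were derived from tumours of the MSC themselves. Neither generation was treated. Both were kept on plates coated with agar, in medium with serum and leukaemia inhibitory factor, and the labels give passages 2 to 20. The labels name neither the host of the injections nor the TL1 line that was injected.

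Each title also holds a number, 1, 2 or 3, which served as a block in the comparison. Number 1 has 1 TL2 line and 2 TL1 lines, number 2 has 2 of each, and number 3 has 1 TL2 line and 2 TL1 lines. Lines are called by generation and number, with a letter where a generation holds a number more than once (TL2 2a, TL2 2b). The letters follow the order of accession and pair no line with another. The labels do not say what the number stands for, nor that lines of a generation came from separate animals, so a p-value here speaks of the spread among the 10 libraries, part of which may be technical.

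Growth of tumour cells in a host followed by culture of the tumour is a serial passage, in which cells that do well in the host can come to make up the line. Tumours of mesenchymal origin can express parts of mesodermal programmes, such as that of skeletal muscle, which the MYOD family of transcription factors sets up. Cholesterol synthesis is switched by SREBP factors according to the sterol content of the cell, and interferon-stimulated genes are switched by STAT and IRF factors.

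Library totals lay between 13901362 and 15962341 counts in TL2 and between 12540701 and 14574984 counts in TL1. The totals averaged 15031253 ± 875043 counts in TL2 and 13647337 ± 807366 counts in TL1 (SD, n = 4 and 6), with a two-sided exact permutation p of 0.0556 within numbers and an adjusted p of 0.185 over 4 such measures. Levels of mesenchymal stromal markers, summed over 23 genes, ranged from 3186 to 4666 counts per 1000000 (CPM) in TL2 and from 2695 to 4952 CPM in TL1. Their most abundant member was Itgb1, an integrin gene. Summed lymphocyte and granulocyte markers reached at most 0.845 CPM in TL2 and 1.45 CPM in TL1, and summed red cell markers at most 1.44 CPM in TL2 and 1.81 CPM in TL1. Epithelial markers were not absent, with sums from 43.5 to 364 CPM in TL2 and from 47.5 to 595 CPM in TL1, and Jup as the most abundant member. Endothelial markers summed to between 7.71 and 43.3 CPM in TL2 and between 6.02 and 37.9 CPM in TL1, with Flt1 as the most abundant member. Summed macrophage markers ranged from 23.5 to 69.1 CPM in TL2 and from 16.04 to 58.4 CPM in TL1, with the surface receptor gene Cd14, which is not confined to macrophages, as the most abundant member. The pan-leukocyte gene Ptprc had 0 to 3 counts in the TL2 libraries and 0 to 4 in the TL1 libraries. In RNA of whole cultures, fewer cells of a type and less RNA per cell cannot be told apart. Trp53 itself, the gene of p53, was at 330.4, 278, 181 and 230.0 CPM in TL2 1, TL2 2a, TL2 2b and TL2 3, against a lowest, median and highest value of 127, 241 and 310.4 CPM in TL1.

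No gene was called between the generations. With edgeR's quasi-likelihood test and the number as a block, 0 of 12611 genes tested (0%) passed an adjusted p of 0.05 in either direction, and 127 had an unadjusted p under 0.05, of which 45 were higher and 82 lower in TL2. Fewer genes had an unadjusted p under 0.05 than 5% of the genes tested, which is 630.55 genes. Limma-voom called 0 genes with 174 at an unadjusted p under 0.05, and DESeq2 called 3 with 282 at that level. The 3 were Dkk2, higher in TL2, and Klhl13 and Pnmal2, lower in TL2. The standard error (SE) of a gene's log2 change had a median of 0.28, with quartiles of 0.21 and 0.45.

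The number accounted for more of the spread than the generation did. Over the genes tested, the number took a median of 37.8% of the sum of squares of log2 CPM on 22.2% of the degrees of freedom, the generation 2.33% on 11.1%, and the residual 55.6% on 66.7%. In the same fit, an F test of the numbers called 226 genes, 1.79% of those tested, and 2881 genes had an unadjusted p under 0.05. Of the 226 genes, 196 were also called by limma-voom and 226 by DESeq2. With 1 library left out the count lay between 28, without TL2 3, and 269, without TL1 1a. In 799 genes TL2 lay above TL1 on average in all 3 numbers and in 946 below, and in 51 and 96 genes every TL2 line lay above, or below, each TL1 line of its own number, 1.17% of the genes tested in both directions together. None of these genes passed the test between the generations.

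Each TL2 line was most like a TL1 line with its own number. After the mean of each generation had been taken out, TL2 1 correlated at r = 0.49 with TL1 1b over the 12611 genes and at r = 0.17 with TL1 1a. TL2 3 correlated at r = 0.62 with TL1 3b and at r = 0.16 with TL1 3a. TL2 2a stood almost equally close to TL1 2b and TL1 2a, with r = 0.35 and 0.33, whereas TL2 2b correlated at r = 0.37 with TL1 2b and at r = -0.01 with TL1 2a. In numbers 1 and 3 the TL1 line with the lower of these values was still the second nearest of the 6 TL1 lines by this measure. On log2 CPM as such this did not hold. TL2 3 correlated at r = 0.934 with TL1 3b and at r = 0.822 with TL1 3a. The second value was the lowest of the 6 TL1 lines, little below TL1 1a and TL1 2b (0.822 and 0.824). TL1 1b, a line of another number, was at r = 0.868. TL2 1 correlated at r = 0.904 with TL1 1a, against 0.905 with TL1 2b and 0.948 with TL1 1b. TL1 lines of one number were not close to each other throughout: TL1 1a and TL1 1b correlated at r = 0.911 and TL1 3a and TL1 3b at r = 0.881, against 0.949 for TL1 2a and TL1 2b. These correlations are across genes of single libraries, genes are not independent replicates, and all libraries were pooled for sequencing, per the labels.

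**Figure D1:**
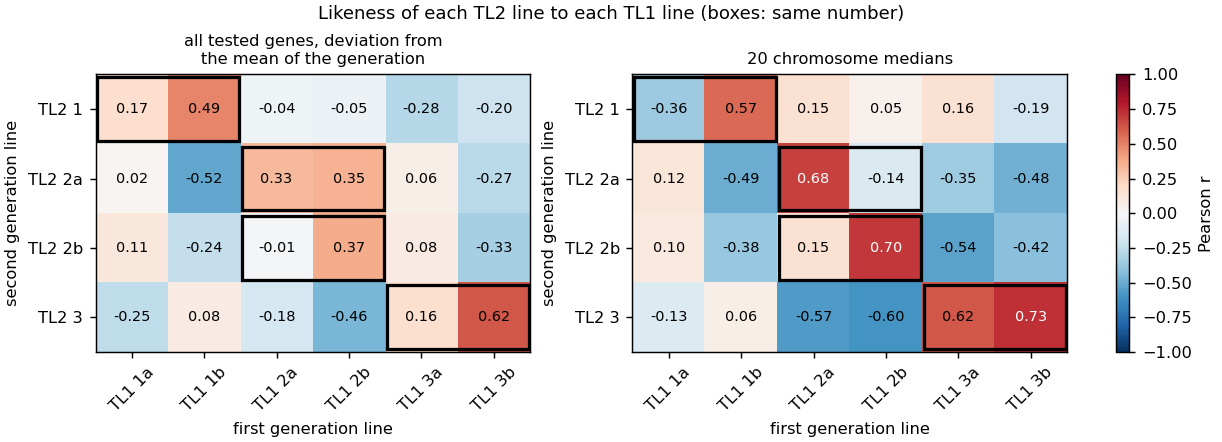
Pearson correlation of each TL2 line (rows) with each TL1 line (columns), on the left over 12611 genes after taking out the mean of each generation and on the right over the medians of 20 chromosomes, with a box around lines that share a number. The highest value of each row lies inside its box, at 0.49, 0.35, 0.37 and 0.62 on the left and at 0.57, 0.68, 0.70 and 0.73 on the right.

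Lines were also compared by chromosome. For each chromosome, the median difference of its genes from the median of the 10 lines was taken in each line. Over the 20 chromosomes TL2 2a correlated at r = 0.68 with TL1 2a and at r = -0.14 with TL1 2b, and TL2 2b correlated at r = 0.70 with TL1 2b and at r = 0.15 with TL1 2a. The chromosome medians thus set each TL2 line of number 2 nearest to a different TL1 line, which the gene-wise likeness of TL2 2a did not show. Chromosome 6 was at 0.05 and 0.42 in TL2 2a and TL2 2b, against 0.10 and 0.36 in TL1 2a and TL1 2b, on the log2 scale. Chromosome 8 was at -0.01 and 0.26 in TL2 2a and TL2 2b, against -0.01 and 0.26 in TL1 2a and TL1 2b. Chromosome 1 was high in the lines of number 3, at 0.35 in TL2 3 against 0.42 and 0.37 in TL1 3a and TL1 3b. Other chromosomes were less alike within a number. Chromosome 9 was at 0.15 in TL2 1, against -0.11 and 0.53 in TL1 1a and TL1 1b. Chromosome 12 was at 0.09 in TL2 3, against 0.01 and 0.42 in TL1 3a and TL1 3b. TL2 1 was closest to TL1 1b, with r = 0.57, against r = -0.36 with TL1 1a. Between the generations, chromosome medians of the log2 change lay between -0.07 and 0.11.

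**Figure D2:**
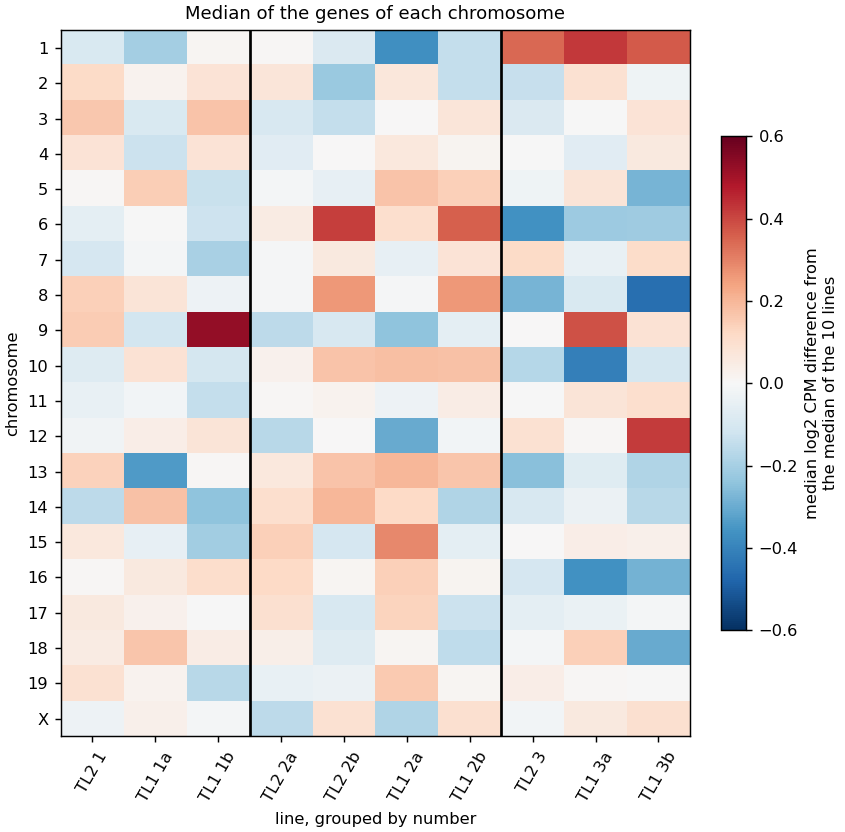
Median difference in log2 CPM of the genes of each chromosome (rows) in each line (columns) from the median of the 10 lines, with lines grouped by number and TL2 left of TL1 in each group. Chromosome 6 stands out in TL2 2b and TL1 2b at 0.42 and 0.36, and chromosome 1 in the 3 lines of number 3. The values farthest from 0 are those of chromosome 9 in TL1 1b, at 0.53 against 0.15 in TL2 1, and of chromosome 8 in TL1 3b, at -0.45 against -0.28 in TL2 3.

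Running medians over 41 neighbouring genes marked shorter stretches. On chromosome 8 between Mt1 and Nqo1 (build GRCm38, chr8:94178883-107403205), 101 tested genes had a median of 1.36 in TL2 1, against 0.45 and 0.97 in TL1 1a and TL1 1b, while the other TL2 lines lay between -0.61 and 0.11. The stretch ends in Nqo1, a quinone reductase of the antioxidant response, which is among the genes with the smallest p below. Nqo1 itself was not raised in TL2 1, at 6.26 log2 CPM against 6.28 and 6.23 in TL1 1a and TL1 1b. Across the start of the stretch, from Mmp2 to Rspry1 (chr8:92827290-94660276), 16 genes had medians of -1.09 and 0.33 in TL2 2a and TL2 2b, against -0.98 and 0.45 in TL1 2a and TL1 2b. Here too TL2 2a went with TL1 2a and TL2 2b with TL1 2b. On chromosome 9 between Pdgfd and Birc3 (chr9:6168363-7873205), a running median over 21 genes, chosen after seeing the data, found 10 genes at 1.47 and 0.77 in TL2 2a and TL2 2b, against 1.88 and 1.67 in TL1 2a and TL1 2b. The same genes were at -2.14 in TL2 1, against 1.15 in TL1 1a and -1.39 in TL1 1b, so that number 1 was split between its lines. In number 3 they were at -2.03 in TL2 3, against -0.999 and -2.10 in TL1 3a and TL1 3b.

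Yap1, the transcriptional co-activator of the Hippo pathway, lies beside that stretch (chr9:7931999-8004638). It was at 102, 2066, 1406 and 135 CPM in TL2 1, TL2 2a, TL2 2b and TL2 3. In TL1 it was at 1333 CPM in TL1 1a, at 172 CPM in TL1 1b, at 2660.0 and 2773 CPM in number 2, and at 193 and 131 CPM in number 3. TL2 of number 2 lay below TL1 of number 2, and TL2 lines, like TL1 lines, lay at both ends of the range (log2 change -1.03, SE 0.63, edgeR adjusted p = 1). Closer to the start of the chromosome, Aasdhppt, which attaches phosphopantetheine to carrier proteins, was at 308 and 322 CPM in TL2 2a and TL2 2b, against 595 and 558 CPM in TL1 2a and TL1 2b, and below 41 CPM in the other 6 lines. Its difference between the numbers was called (edgeR adjusted p = 8.6e-05), and its log2 change between the generations of -0.55 (SE 0.16) was not (adjusted p = 1).

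The genes with the smallest p are given as measurements, since none passed. Of the 12 genes that led among those higher in TL2, 6 had each TL2 line above the TL1 lines of its number, and of the 12 that led among those lower in TL2, 5 had each TL2 line below them. The p-values rest on the same values, so genes picked by them are the more readily apart in this way. Over all 12611 genes tested, 1.17% were apart in either direction. Only Sqle of the first 12 had no overlap over all 10 lines, and only Klhl13 of the second 12. Sqle, squalene epoxidase, an oxygen-dependent step of cholesterol synthesis, was at 194, 272, 197 and 218 CPM in TL2 1, TL2 2a, TL2 2b and TL2 3. In TL1 its lowest, median and highest values were 70.0, 124 and 162 CPM (log2 change 0.84, SE 0.25, edgeR adjusted p = 1). TL1 2a was the lowest of the 10 lines and TL2 2a the highest.

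Npr3, the natriuretic peptide clearance receptor, was at 4.53, 13.6, 13.7 and 15.8 CPM in TL2 1, TL2 2a, TL2 2b and TL2 3, and at 2.47, 3.44 and 4.80 CPM as lowest, median and highest of TL1 (log2 change 1.61, SE 0.35). The TL2 lines of numbers 2 and 3 lay well above TL1 and TL2 1 lay within its range. Hopx, a homeodomain cofactor of heart and stem cells, had a like pattern over all lines, at 1.32, 7.19, 13.8 and 11.1 CPM in TL2 1, TL2 2a, TL2 2b and TL2 3 against 0.708, 1.69 and 2.75 CPM in TL1. Within number 1, though, TL2 1 lay below both TL1 lines in Hopx (0.55 against 0.96 and 0.77 log2 CPM) and above both in Npr3. Dkk2, a secreted WNT modulator, was high in a single TL2 line, at 287 CPM in TL2 3, with 6.20, 0.198 and 1.07 CPM in the other TL2 lines and 0.14, 1.41 and 13.3 CPM in TL1. Its log2 change was 3.04 (SE 0.62), and 1.77 without TL2 3, when the remaining TL2 lines lie within the range of TL1. Fzd5, a WNT receptor, was at 9.97, 11.9, 7.95 and 37.1 CPM in TL2 1, TL2 2a, TL2 2b and TL2 3 against 5.86, 7.82 and 18.2 CPM in TL1. Both Fzd5 and Dkk2 were highest in number 3, and their difference between the numbers was called (edgeR adjusted p = 0.0439 and 0.00912).

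Of genes with lower values in TL2, Lrp11, a receptor-related membrane protein, was at 14.8, 17.2, 14.1 and 4.13 CPM in TL2 1, TL2 2a, TL2 2b and TL2 3 against 9.78, 20.6 and 31.7 CPM in TL1, with TL2 below TL1 in each number. Ngfr, the low-affinity neurotrophin receptor and a marker of some stromal and neural crest cells, was at 1.53, 1.98, 0.215 and 1.46 CPM in TL2 against 0.629, 11.2 and 57.1 CPM in TL1. TL1 2b, at 0.629 CPM, was the TL1 line inside the range of TL2. Klhl13, an adaptor of a ubiquitin ligase that acts in mitosis, had at most 0.264 CPM in TL2, against 0.456, 3.36 and 42.1 CPM in TL1, and 0 counts in TL2 1 and TL2 3. Pnmal2 had at most 0.279 CPM in TL2, against 0.14, 2.14 and 59.8 CPM in TL1. The fitted changes of Klhl13 and Pnmal2, -5.77 (SE 1.82) and -5.56 (SE 1.79), rest on TL2 libraries near 0 counts and their size depends on the prior count.

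Pcyt2, an enzyme of phosphatidylethanolamine synthesis, was at 75.1, 63.3, 91.6 and 113 CPM in TL2 1, TL2 2a, TL2 2b and TL2 3 against 34.0, 59.2 and 77.6 CPM in TL1 (log2 change 0.65, SE 0.20). Cd14 was at 34.6, 13.3, 18.1 and 25.7 CPM in TL2 against 7.87, 13.8 and 23.8 CPM in TL1, and Ogfrl1 at 8.23, 8.97, 14.5 and 15.7 CPM in TL2 against 3.99, 7.78 and 9.71 CPM in TL1. All 3 genes had TL2 above TL1 in each number, while over all lines the generations overlapped. Nqo1 was at 76.6, 101, 83.6 and 40.3 CPM in TL2 1, TL2 2a, TL2 2b and TL2 3 against 13.5, 49.6 and 77.6 CPM in TL1, with overlap in number 1. Ephb4, a receptor for ephrins, had its lowest TL2 value in TL2 1, at 16.5 CPM, against 65.6, 73.9 and 133 CPM in the other TL2 lines and 12.7, 20.3 and 69.6 CPM in TL1. Pxk and Btd, the gene of biotinidase, had log2 changes of 0.63 and 0.68 with overlap within a number.

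Lower in TL2 was Drp2, a relative of dystrophin, at 24.6, 0.726, 0.573 and 1.52 CPM in TL2 1, TL2 2a, TL2 2b and TL2 3 against 0.837, 27.0 and 125 CPM in TL1, with TL2 below TL1 in each number. Crmp1, a cytosolic protein of growing axons, was at most 0.0697 CPM in TL2 1, TL2 2a and TL2 2b and at 3.81 CPM in TL2 3, against 0.209, 0.613 and 47.7 CPM in TL1. Both TL2 and TL1 of number 3 were the high lines, and TL2 lay below TL1 in each number. Alox5, which makes leukotrienes, was at 19.4, 0.132, 0.358 and 0 CPM in TL2 1, TL2 2a, TL2 2b and TL2 3 against 0.349, 13.4 and 133 CPM in TL1. Baiap2l1, which links membranes to actin, was at 42.4, 8.12, 11.6 and 8.38 CPM in TL2 against 24.9, 34.6 and 68.1 CPM in TL1, so 3 of the 4 TL2 lines lay below all TL1 lines. Msantd4, a neighbour of Aasdhppt, was at 469 and 484 CPM in TL2 2a and TL2 2b, against 765 and 797 CPM in TL1 2a and TL1 2b.

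Of genes chosen for their roles, Sox2, a pluripotency factor, was at 11.6, 0.924, 7.23 and 80.6 CPM in TL2 1, TL2 2a, TL2 2b and TL2 3 against 0.13, 7.13 and 41.3 CPM in TL1. Il33, an alarm cytokine, was at 47.7, 7.33, 20.8 and 0.825 CPM in TL2 against 5.16, 13.6 and 117 CPM in TL1. Neither gene held apart the generations, and lines of a single number differed in both. Lin28b, an RNA-binding protein of early cells, had 0 to 3 counts in each line and was not tested.

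**Figure D3:**
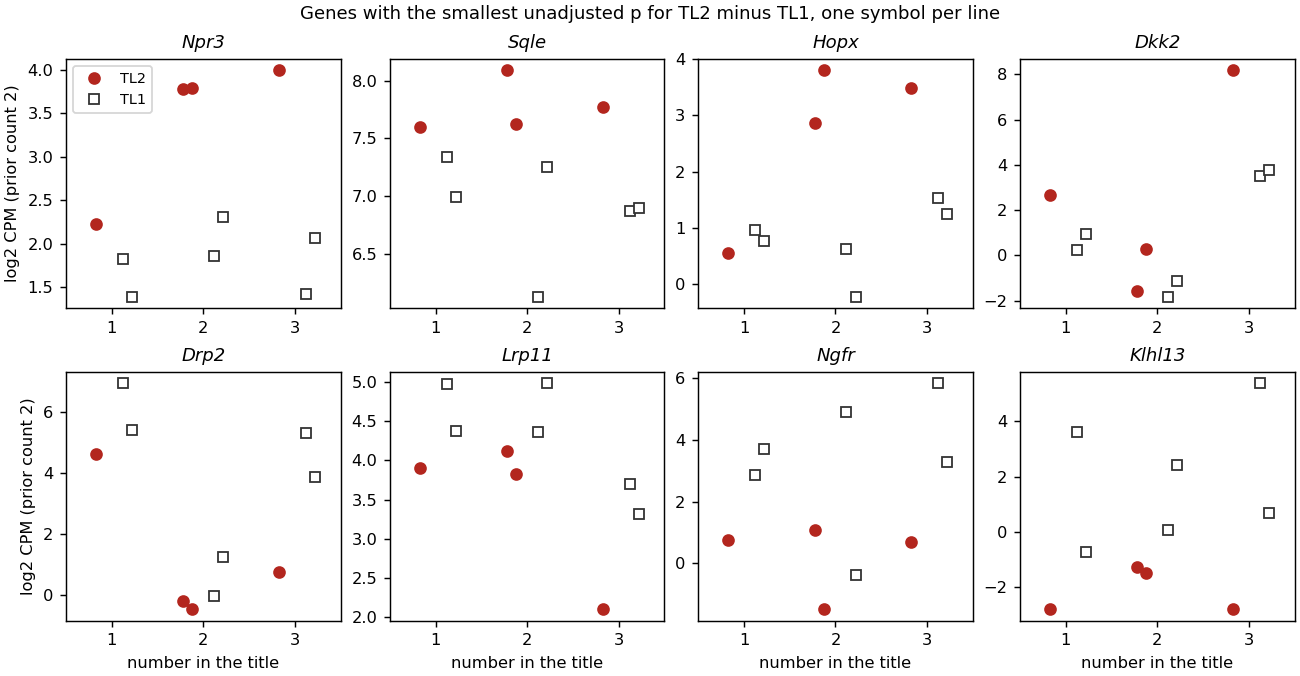
Level of 8 of the 24 genes with the smallest unadjusted p in each line, as log2 CPM with a prior count of 2, by the number in the title, with TL2 as filled circles left of TL1 as open squares. TL2 lies above TL1 in each number for Npr3 and Sqle and below it in each number for Lrp11 and Klhl13, and none of the 8 genes passed the adjusted threshold of 0.05.

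Of the 39 lists with tested genes, that of skeletal muscle had the lowest median change. All 28 genes of the skeletal muscle list are in the table and 24 passed the filter on low counts, the others being Pax7, Myh2, Myh8 and Ckm. All 24 had a negative log2 change and 0 were called, with a median of -2.30, beside 6268 negative changes and a median of 0.00 over the 12611 genes tested. Within the numbers the list's median of TL2 minus TL1 was -2.18, -0.00 and -5.57 in numbers 1, 2 and 3, so the negative median lay in numbers 1 and 3. Of the 24 genes, 16 were lowest in TL2 3 and 5 in TL2 1, and 15 were highest in TL1 3a and 5 in TL1 1a. The median over the list, relative to the 10 lines, was -2.02, 0.21, -0.13 and -4.18 in TL2 1, TL2 2a, TL2 2b and TL2 3. In TL1 it was 1.67 and -0.91 in number 1, -0.21 and 0.94 in number 2 and 3.12 and -0.24 in number 3. The TL1 lines most like TL2 1 and TL2 3 over all genes, TL1 1b and TL1 3b, thus had lower values than the other TL1 line of their number. Without TL2 3 the list's median change was -0.83, with 21 of 25 genes negative, and without TL1 3a it was -1.52.

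Among the regulators, Myod1, which turns on muscle genes, was at 8.02, 71.0, 310.0 and 0.127 CPM in TL2 1, TL2 2a, TL2 2b and TL2 3. In TL1 its lowest, median and highest values were 37.7, 127 and 575 CPM (log2 change -2.71, SE 2.86, edgeR adjusted p = 1). TL2 1 and TL2 3 lay below each TL1 line, and TL2 2a and TL2 2b lay within the range of TL1. Myf5, a relative of Myod1 that marks muscle precursors, had 0 counts in TL2 3, with 210, 46.5 and 32.2 CPM in TL2 1, TL2 2a and TL2 2b and 13.5, 74.4 and 124 CPM in TL1. TL2 1, low in Myod1, was thus the highest of the 10 lines in Myf5. Myog, which acts at the onset of fusion, was at 0.139, 7.92, 4.51 and 0 CPM in TL2 1, TL2 2a, TL2 2b and TL2 3, against 1.11, 10.6 and 277 CPM in TL1.

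Among the structural genes, Acta1, skeletal alpha-actin, was at 0.976, 42.6, 20.2 and 0.762 CPM in TL2 1, TL2 2a, TL2 2b and TL2 3. In TL1 it was at 1.63, 51.8 and 508 CPM as lowest, median and highest (log2 change -3.93, SE 1.79, edgeR adjusted p = 1). TL2 1 and TL2 3 were the lowest of the 10 lines, and TL1 1b at 1.63 CPM came next to them. Des, the intermediate filament desmin, had 3 counts in TL2 3, with 134, 164 and 494 CPM in TL2 1, TL2 2a and TL2 2b and 54.9, 379 and 1606 CPM in TL1. Of the muscle acetylcholine receptor, which gathers at the nerve contact, the subunit gene Chrna1 was at 192, 173, 88.2 and 11.2 CPM in TL2 1, TL2 2a, TL2 2b and TL2 3 against 82.6, 158 and 472 CPM in TL1. Chrng, the fetal subunit, was at 0.767, 2.84, 4.73 and 0.0635 CPM in the same TL2 lines against 1.81, 9.51 and 82.0 CPM in TL1.

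**Figure D4:**
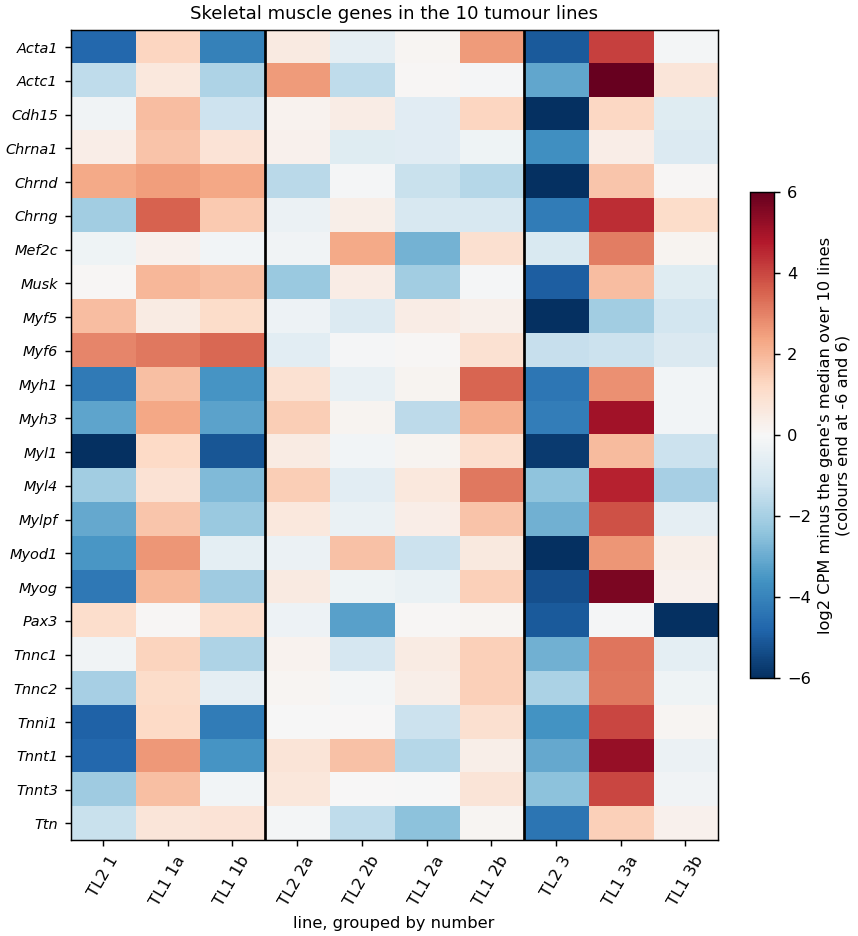
Log2 CPM of the 24 tested skeletal muscle genes (rows) in each line (columns) minus the gene's median over the 10 lines, grouped by number with TL2 left of TL1. TL2 3 is low in nearly the whole list and lowest in 16 of 24 genes, and TL1 3a is highest in 15.

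Promoters of muscle genes are shown because most genes of the list were lowest in TL2 3, as were Acta1, Chrna1 and Chrng. In other lines these genes did not all go together. TL2 1 was below each TL1 line in Acta1 but within the range of TL1 in Chrna1. The sequences are RefSeq windows around the start of the gene on GRCm38.p6, 5′ to 3′ on the gene's strand, with matches to the E-box CAGCTG, which MYOD proteins can bind, in capitals. The motif reads the same on both strands and was the only motif searched in these windows. It was found in the windows of 7 of 19 muscle genes with a window (36.8%), and in those of 1680 of 9351 tested genes (18%). Acta1 (chr8:123894726-123895025, minus strand) holds 1 match, and Chrna1 (chr2:73580289-73580588, minus strand) and Chrng (chr1:87205561-87205860, plus strand) hold 2 each. A match is a description of the letters and not a site of binding.
Acta1: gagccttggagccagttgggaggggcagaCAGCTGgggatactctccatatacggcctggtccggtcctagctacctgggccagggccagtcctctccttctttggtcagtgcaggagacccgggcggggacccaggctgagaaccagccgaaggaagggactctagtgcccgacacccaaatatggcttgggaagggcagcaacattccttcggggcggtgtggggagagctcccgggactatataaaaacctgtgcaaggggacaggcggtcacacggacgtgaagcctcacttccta
Chrna1: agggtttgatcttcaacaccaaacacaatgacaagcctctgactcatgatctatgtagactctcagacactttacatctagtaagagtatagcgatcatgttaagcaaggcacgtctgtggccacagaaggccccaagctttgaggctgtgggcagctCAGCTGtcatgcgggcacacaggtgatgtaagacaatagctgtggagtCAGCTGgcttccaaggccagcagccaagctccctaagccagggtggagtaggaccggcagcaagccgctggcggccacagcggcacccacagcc
Chrng: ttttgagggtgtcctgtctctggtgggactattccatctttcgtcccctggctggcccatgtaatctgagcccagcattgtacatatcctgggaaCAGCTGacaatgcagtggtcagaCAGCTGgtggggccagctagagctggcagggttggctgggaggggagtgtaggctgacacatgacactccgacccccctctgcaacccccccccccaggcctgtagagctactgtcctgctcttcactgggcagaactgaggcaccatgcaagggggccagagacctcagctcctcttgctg

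TL2 3 also stood apart in single genes. Of 10 genes with at most 3 counts in 1 line and at least 10 CPM in each of the other 9, 9 were low in TL2 3 and 1, Trim44, was low in TL1 1a. Besides Myf5 and Des, the 9 included Popdc3 and Bves, membrane proteins of heart and skeletal muscle that lie next to each other on chromosome 10, and Adck1, Asb5 and Fam20c. Popdc3 had 2 counts in TL2 3, with 83.0, 57.7 and 78.5 CPM in TL2 1, TL2 2a and TL2 2b and 22.7, 56.4 and 134 CPM in TL1. Adck1, a mitochondrial kinase-like gene, had 0 counts in TL2 3 and between 12.1 and 24.2 CPM in the other 9 lines. In the other direction Fam84b, which lies on chromosome 15 as Myc does, was at 952 CPM in TL2 3 and at 3.42, 5.02 and 6.09 CPM in the other TL2 lines, against 1.28, 3.42 and 17.8 CPM in TL1. Myc, the growth regulator, was at 1029 CPM in TL2 3 and at 219, 159.8 and 97.0 CPM in the other TL2 lines, against 123, 197 and 634 CPM in TL1, with TL1 3b as its highest TL1 line.

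Whether the change between generations differs between the numbers was tested with an interaction term. edgeR called 0 genes (0%), with 1390 at an unadjusted p under 0.05 and a smallest adjusted p of 0.373, on 4 residual degrees of freedom. Limma-voom called 0 and DESeq2 called 378, so the count depends on the tool. The 10 genes with the smallest p included Fam84b, Myf5, Adck1 and Popdc3, whose values stand above, and genes set apart by TL2 1. Tgm2, transglutaminase 2, was at 2.58, 47.7, 80.4 and 50.2 CPM in TL2 1, TL2 2a, TL2 2b and TL2 3, against 10.5, 16.9 and 61.9 CPM in TL1 (interaction adjusted p = 0.397 with edgeR). Within number 2 TL2 lay above TL1, which had 18.1 and 15.7 CPM, and within number 1 below it. Xbp1, a factor of the unfolded protein response, had the same order, with 24.9, 115, 119.5 and 88.0 CPM in TL2 1, TL2 2a, TL2 2b and TL2 3 against 40.8, 71.0 and 146 CPM in TL1. Col3a1, a fibrillar collagen, was at 184, 913, 511 and 689 CPM in TL2 1, TL2 2a, TL2 2b and TL2 3 against 50.4, 473 and 2118 CPM in TL1.

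Interferon-stimulated genes were high in 1 TL2 line and in 1 TL1 line. Of the 35 listed genes in the table, 34 were tested (not Oas2), 25 were highest in TL2 3 and the other 9 in TL1 2a. The list's median relative to the 10 lines was -1.50, -0.33, -0.08 and 3.59 in TL2 1, TL2 2a, TL2 2b and TL2 3. In TL1 it was -1.27 and 0.72 in number 1, 3.01 and -0.87 in number 2, and 0.40 and 0.05 in number 3. With the number as a block the median log2 change was -0.42 with 10 genes positive and 24 negative and 0 called, whereas without the replicate block it was 0.64 with 29 positive and 5 negative. The sign also turned without TL1 2a, to 1.17, and without TL1 1b, TL2 1, TL2 2a or TL2 2b, to between 0.24 and 0.42. Without TL2 3 the median was -2.28, and without TL1 3a and TL1 3b, each in turn, -1.33 and -1.39. No direction between the generations can be given for this list.

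Irf7, which amplifies the response, was at 1.88, 4.88, 5.51 and 478 CPM in TL2 1, TL2 2a, TL2 2b and TL2 3. In TL1 it was at 129 CPM in TL1 2a and between 0.979 and 17.2 CPM in the other 5 lines. Isg15, a ubiquitin-like modifier, was at 7.32, 14.7, 12.5 and 378 CPM in TL2 1, TL2 2a, TL2 2b and TL2 3 against 6.93, 29.6 and 271 CPM in TL1. TL2 3 and TL1 2a were not alike in each gene. Rsad2, the antiviral enzyme viperin, was at 14.9 CPM in TL2 3 against 68.9 CPM in TL1 2a, whereas Mx1, an antiviral GTPase, was at 59.0 CPM in TL2 3 against 1.40 CPM in TL1 2a. Ifit2, which binds viral RNA, was at 354 CPM in TL2 3 against 35.9 CPM in TL1 2a. Genes of MHC class I and antigen presentation followed in part, with list medians of 1.44 in TL2 3 and 1.18 in TL1 2a, against values between -0.31 and -0.20 in the other TL2 lines and between -0.88 and 0.78 in the other TL1 lines.

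Promoters of interferon genes are shown because each tested gene of the list was highest in TL2 3 or in TL1 2a. Rsad2 was highest in TL1 2a, and its level in TL2 3 lay below that in TL1 1b. The windows are RefSeq's on GRCm38.p6, as above, with matches on either strand in capitals. The motif is the letters GAAA, any 2 bases, and GAAA again, read as TTTC on the opposite strand, and overlapping matches form 1 block. The motif was found in the windows of 17 of 26 tested interferon genes with a window (65.4%), and in those of 335 of 9351 tested genes (3.58%). Isg15 (chr4:156200769-156201068, minus strand) holds 3 overlapping matches, Ifit1 (chr19:34640639-34640938, plus strand) 2, and Rsad2 (chr12:26456403-26456702, minus strand) 1. Ifit1 was at 10.7, 14.8, 17.6 and 348 CPM in TL2 1, TL2 2a, TL2 2b and TL2 3 against 10.3, 47.1 and 176 CPM in TL1.
Isg15: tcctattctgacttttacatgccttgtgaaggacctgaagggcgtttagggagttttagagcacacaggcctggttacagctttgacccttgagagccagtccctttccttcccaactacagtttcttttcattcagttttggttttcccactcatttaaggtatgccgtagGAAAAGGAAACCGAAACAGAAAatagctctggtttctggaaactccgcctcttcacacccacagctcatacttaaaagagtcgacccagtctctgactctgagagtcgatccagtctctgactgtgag
Ifit1: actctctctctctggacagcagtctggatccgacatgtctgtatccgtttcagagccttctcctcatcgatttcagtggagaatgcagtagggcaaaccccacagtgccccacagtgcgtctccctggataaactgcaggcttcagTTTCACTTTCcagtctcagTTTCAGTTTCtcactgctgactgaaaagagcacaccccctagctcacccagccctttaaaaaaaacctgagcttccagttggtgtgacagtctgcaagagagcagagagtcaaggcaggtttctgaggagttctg
Rsad2: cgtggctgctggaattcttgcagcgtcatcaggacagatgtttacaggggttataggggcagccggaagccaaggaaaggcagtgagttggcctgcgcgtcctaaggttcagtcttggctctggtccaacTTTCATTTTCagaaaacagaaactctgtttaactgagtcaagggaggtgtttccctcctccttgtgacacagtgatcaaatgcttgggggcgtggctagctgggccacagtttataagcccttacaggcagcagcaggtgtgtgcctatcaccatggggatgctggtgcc

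In the genes of cholesterol synthesis TL1 2a stood apart as the low line. All 20 listed genes were tested, 19 had a positive log2 change, 2 had an unadjusted p under 0.05 (Sqle and Cyp51) and 0 were called, with a median of 0.46 beside 0.00 over all genes tested. Of the 20 genes, 15 were lowest in TL1 2a, whereas 8 were highest in TL2 2b and 6 in TL2 3. The list's median relative to the 10 lines was 0.02, 0.13, 0.41 and 0.42 in TL2 1, TL2 2a, TL2 2b and TL2 3, against -1.40 in TL1 2a and values between -0.27 and 0.05 in the other 5 TL1 lines. Without TL1 2a the median change was 0.23 with 18 genes positive, and without TL1 2a and TL2 3 together, an alternative added after seeing the data, it was 0.02 with 11 genes positive and 9 negative. Without TL2 1 it was 0.71 and without TL1 2b 0.70. Within number 1 the median of TL2 minus TL1 was -0.00.

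Cyp51, which demethylates lanosterol, was at 259, 290.4, 335 and 284 CPM in TL2 1, TL2 2a, TL2 2b and TL2 3, against 69.2, 167 and 266 CPM in TL1 (log2 change 0.78, SE 0.34, edgeR adjusted p = 1). TL1 1a, at 266 CPM, reached into the range of TL2. Fdps, which makes farnesyl diphosphate, was at 308, 309, 382 and 406 CPM in the TL2 lines against 60.5, 285 and 334 CPM in TL1. Hmgcs1, the first committed step of the mevalonate branch, was at 139, 191, 276 and 115 CPM in TL2 1, TL2 2a, TL2 2b and TL2 3 against 43.0, 121 and 213 CPM in TL1. TL1 2a was the lowest TL1 line in each of these genes. In fatty acid synthesis 12 of 14 tested genes had a positive change with a median of 0.23 and 0 called, and 11 of the 14 were lowest in TL1 2a. Without TL1 2a the median was 0.059 with 9 genes positive, without TL2 2b 0.13, without the replicate block 0.13, and without TL1 2a and TL2 3 together -0.072. The interferon list had its highest TL1 median, 3.01, in the same line, and whether the lists are linked was not tested.

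Of the sterol promoters that RefSeq lists, 1 of 15 (6.67%) held the sterol element TCACNCCAC, read on both strands, beside 133 of 9351 tested genes (1.42%). It is that of Hmgcs1 (chr13:119690101-119690400, plus strand), shown for its place at the entry of the pathway, with the match in capitals.
Hmgcs1: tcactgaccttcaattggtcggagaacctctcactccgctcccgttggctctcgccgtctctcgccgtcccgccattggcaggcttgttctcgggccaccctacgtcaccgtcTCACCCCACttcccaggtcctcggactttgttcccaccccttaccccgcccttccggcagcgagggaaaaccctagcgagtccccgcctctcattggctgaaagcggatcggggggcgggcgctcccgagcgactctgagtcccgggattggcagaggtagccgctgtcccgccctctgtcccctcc

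Growth-related lists went opposite ways in different numbers. In mitosis 29 of 30 genes had a positive log2 change, with a median of 0.16 and 0 called. The medians of TL2 minus TL1 within the numbers were 1.31, -0.32 and -0.34 in numbers 1, 2 and 3, and 24 of the 30 genes were highest in TL2 1. Without TL2 1 the list's median was -0.38, without TL1 1a 0.015, without TL1 1b 0.0040, and otherwise between 0.088, without TL1 3a, and 0.37, without TL2 3. Bub1b, a spindle checkpoint kinase, was at 200.5, 111, 141 and 89.1 CPM in TL2 1, TL2 2a, TL2 2b and TL2 3 against 66.4, 115 and 140.0 CPM in TL1. TL1 3a, the line with the highest muscle genes, was the lowest of the 10 lines in 22 of 30 mitosis genes, 30 of 35 S phase genes and 27 of 32 genes of ribosome biogenesis and growth. The ATF4 and unfolded protein response list had 28 of 33 positive changes and a median of 0.25 with 0 called. Its line medians were -0.52 in TL2 1 and 0.12, 0.24 and 0.44 in TL2 2a, TL2 2b and TL2 3, against values between -0.32 and 0.48 in TL1. Without TL2 3 the median change was -0.089, without TL1 3a 0.10 and without TL2 1 0.51.

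**Figure D5:**
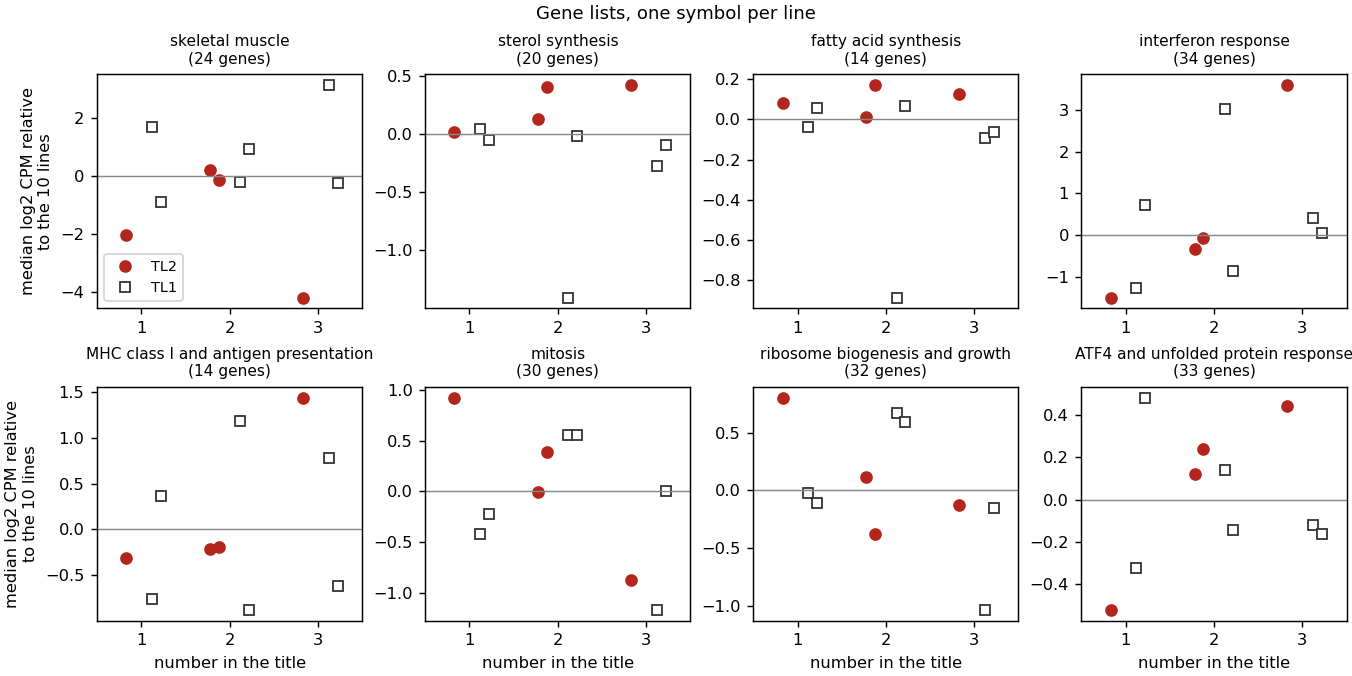
Median over the tested genes of 8 lists of log2 CPM relative to the gene's median over the 10 lines, by the number in the title, with TL2 as filled circles left of TL1 as open squares. TL2 3 lies at -4.18 for skeletal muscle and 3.59 for interferon response, TL1 2a at 3.01 for interferon response and -1.40 for sterol synthesis, and TL2 1 is the highest for mitosis at 0.93.

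Of 39 tested targets of p53, 17 had a positive and 22 a negative change, with a median of -0.04 and 0 called. Cdkn1a, which stops the cell cycle, was at 74.3, 79.8, 51.3 and 34.0 CPM in TL2 1, TL2 2a, TL2 2b and TL2 3, against 43.0, 137 and 314 CPM in TL1 (log2 change -0.86, SE 0.67, edgeR adjusted p = 1). TL2 was below TL1 of its number in Cdkn1a in numbers 1 and 3, and above it in number 2. Mdm2, whose product degrades p53, was at 75.6, 61.4, 68.4 and 67.2 CPM in TL2 against 43.4, 70.8 and 86.9 CPM in TL1. In matrix proteases and their inhibitors 19 of 27 changes were negative with a median of -0.38, and in neural crest and neuronal genes 14 of 20 were negative with a median of -0.71, with 0 called in each. Within number 2 both medians of TL2 minus TL1 were positive, at 0.26 and 0.14. With 1 library left out the median of the proteases lay between -0.63, without TL1 2a, and -0.060, without TL2 3, and it was -0.17 without TL1 1a and -0.15 without TL1 3a. That of the neural crest and neuronal genes lay between -0.92, without TL2 2a, and -0.25, without TL2 1, and it was -0.34 without TL1 1a, -0.42 without TL1 3a and -0.27 without TL2 3. Nes, the intermediate filament nestin, was at 399.9, 292, 304 and 77.2 CPM in TL2 1, TL2 2a, TL2 2b and TL2 3 against 114, 441 and 1113 CPM in TL1. Col1a1, the main collagen of bone and tendon, was at 3.83, 4225, 2157 and 723 CPM in TL2 1, TL2 2a, TL2 2b and TL2 3, and TL1 1b, at 4.43 CPM, was as low as TL2 1.

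Other genes set the numbers apart in both generations. Of the 226 called genes, 61 had number 1 apart from the other lines without overlap, 124 number 2 and 122 number 3, and a gene can count for more than 1 number. The F test rests on the same values, so genes set apart in this way are the more readily called. How many of all genes tested were apart in the same way was not counted. In number 2 the imprinted genes H19 and Cdkn1c, both on chromosome 7, stood out. H19, a non-coding RNA gene, was at 2059.9 and 5131 CPM in TL2 2a and TL2 2b, against 236 and 1919 CPM in TL1 2a and TL1 2b, and at most 1.59 CPM in the other 6 lines (edgeR adjusted p = 0.00285 for the numbers). Cdkn1c, a cell cycle inhibitor gene, was at 15.2 and 14.5 CPM in TL2 2a and TL2 2b, against 50.9 and 151 CPM in TL1 2a and TL1 2b, and at most 0.0697 CPM elsewhere (adjusted p = 0.00474). So within number 2 TL2 lay below TL1 in Cdkn1c, and in H19 TL2 lay above TL1. Since the strand setting of the counting is unknown, these counts may hold reads of genes on the opposite strand or in the same place.

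Other genes were low in the lines of number 2. Stat6, the transducer of interleukin-4 signals, was at 0.726 and 1.15 CPM in TL2 2a and TL2 2b, against 0.279 and 0.236 CPM in TL1 2a and TL1 2b, and between 57.8 and 106 CPM in the other 6 lines (edgeR adjusted p = 0.00078 for the numbers). Cd34, a sialomucin of progenitor cells, was at 0.33 and 0.286 CPM in TL2 2a and TL2 2b, against 1.19 and 1.02 CPM in TL1 2a and TL1 2b, and at 223 and 865 CPM in TL2 1 and TL2 3 (adjusted p = 0.00919). In number 1 Cdh3, P-cadherin, was at 24.9 CPM in TL2 1, against 30.8 and 63.0 CPM in TL1 1a and TL1 1b, and at most 5.98 CPM elsewhere (adjusted p = 0.0164). In number 3 Ror2, a WNT5A receptor, was at 42.1 CPM in TL2 3, against at least 31.7 CPM in both TL1 3a and TL1 3b, and at most 0.931 CPM elsewhere (adjusted p = 0.00928). Aldoc, an aldolase, was at 83.2 CPM in TL2 3, against 10.7 and 55.2 CPM in TL1 3a and TL1 3b, and Ptges, which makes prostaglandin E2, at 123 CPM in TL2 3 against 34.7 and 109 CPM, with TL1 3b the nearer line to TL2 3 in both. Itgbl1 was at 96.2 CPM in TL2 3, against 1.81 and 24.4 CPM in TL1 3a and TL1 3b.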

How the data were processed

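Per the labels' protocols, RNA of whole cultures was read from one end, over 60 bases. The authors deposited 1 table of read counts per gene symbol, not normalized. The submitters' processing notes name cutadapt, TopHat2 2.0.10, HTSeq 0.6.1p1, DESeq2 1.6.3 and the build mm10. What each tool did, the annotation and the strand setting were not given in the sources used here. Besides the columns of the samples, the table has 4 more, which no sample's labels match, and they were left out.

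From the counts, TMM factors, CPM and the tests were computed with edgeR 4.0.16 in R 4.3.3. Genes were filtered with filterByExpr, which left 12611 of 23420. The main test was the quasi-likelihood test of generation with the number in the title as a block, on the 10 lines alone, with p-values adjusted by Benjamini and Hochberg over all genes tested and a threshold of 0.05. The difference between the numbers was an F test in the same fit, and the interaction a term added to it. DESeq2 1.42.0 and limma-voom (limma 3.58.1) were run as alternatives with the same model. The procedure was also run on simulated counts with large planted changes, which cannot say what smaller changes the comparison could find. Fitted log2 changes are edgeR's, and SEs were derived from its test. Levels per line are CPM, which do not correct for gene length, so levels of different genes were not compared. Log2 CPM for likeness, medians and figures used a prior count of 2. Depth was 12540701 to 15962341 counts a library, and no p-value covers more than the spread among libraries.

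The number was a block by the definition of the comparison, set before its values were looked at. TL2 and TL1 of one number deviated together from the mean of their generation, with r = 0.48, 0.38 and 0.50 over 12611 genes for numbers 1, 2 and 3. Between different numbers r was negative. Taking out the mean makes the deviations of a generation cancel, so positive values within numbers bring negative ones between them. Libraries of 1 group differed by more than sampling noise, so none was counted as a repeat of another.

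Positions, symbols and promoter windows are RefSeq's for GRCm38.p6, a patch release of the assembly that mm10 stands for, and 12564 tested genes were placed. Named genes are the 12 in each direction with the smallest unadjusted p whose higher generation averaged 5 CPM or more, up to 3 per list, 8 called genes per number at 10 CPM or more with no overlap, the 10 leading genes of the interaction, and fixed genes such as Trp53, Myc and Yap1. Chrna1, Chrng, Myog, Des, Isg15, Ifit1, Irf7, Fdps, Col1a1 and the genes at the ends of chromosome stretches were chosen after their values were seen. Members and lists were chosen with earlier results of these data known. Alternatives were other scalings, no filter on low counts, no block, MSC libraries in the fit, counts summed per number and generation, and each library left out in turn. Leaving out TL2 3 together with TL1 2a or TL1 3a was added after seeing the data. Some genes that these rules select are not reported here.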

Additional observations from a re-analysis of the deposited data

Results flagged for a closer look

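Of 194 groups of 4 or 6 lines looked at, 20 held a line far from the rest of its generation. Chance flags about 1 in 20 groups, but many of these genes were picked for a number or an interaction that 1 TL2 line carries, so their share cannot be set against that rate. TL2 3 stood far above the other TL2 lines, on the scale of log2 CPM, in Fam84b (9.90), Kcnab2 (7.24), Ptges (6.95), Aldoc (6.38), Glp1r (5.83) and Crmp1 (1.98). It stood far below them in Adck1 (-2.83), Popdc3 (-1.90) and Lrp11 (2.09). TL2 1 was far below the other TL2 lines in Npr3 (2.22) and Tgm2 (1.44), and TL2 2b in Ngfr (-1.49). TL1 2a was far below the other TL1 lines in the sterol genes Insig1 (4.71) and Stard4 (3.34).

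Medians over lists, relative to the 10 lines, set apart the same TL1 line. TL1 2a was at -1.40 for sterol synthesis, -1.09 for sterol uptake and its regulation, and -0.89 for fatty acid synthesis. In MHC class I and antigen presentation TL2 3 was at 1.44 among TL2. In glycolysis and hypoxia TL2 3 was at 0.39 among TL2 and TL1 3b at 1.04 among TL1, both of number 3.

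In 7 lists every TL2 line lay above TL1 in one number and below it in another. These differences between the numbers were not tested. The mean list median of TL2 minus that of TL1 was -0.32, 0.70 and 0.28 in numbers 1, 2 and 3 for sterol uptake and its regulation, and 0.87, -0.76 and 0.47 for ribosome biogenesis and growth. For matrix proteases and inhibitors it was -0.65, 0.36 and -1.07 in the same order of numbers. For S phase it was 0.90 in number 1 and -0.59 in number 2, and for mitosis 1.25 in number 1 and -0.36 in number 2. For the ATF4 and unfolded protein response it was -0.60 in number 1 and 0.58 in number 3, and for the interferon response -1.22 in number 1 and 3.37 in number 3.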

How the results depend on the processing

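DESeq2 called 3 genes between the generations, and the other settings called 0. Without the replicate block 0 genes were called and 114 had an unadjusted p under 0.05, so the pairing by number changed no call. The numbers differed in 413 genes without the filter on low counts, in 1893 with DESeq2, in 28 to 269 with 1 library left out, in 8 without TL1 2a and TL2 3, and in 55 without TL1 3a and TL2 3. Leaving out any library other than TL1 1a, TL1 3a or TL2 1 moved that count by over 1.5 times. The interaction called 4 genes without the filter and 378 with DESeq2, and it could not be fitted without TL2 1 or TL2 3. The cause was not tested.

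Some uncalled log2 changes turned sign. With 1 library left out, Trp53 lay between -0.18 and 0.28, Mdm2 between -0.16 and 0.058, Myc between -0.27 and 0.53, Sox2 between -0.79 and 1.27, Ifit2 between -0.56 and 1.39, Mx1 between -0.91 and 2.67 and Il33 between -0.98 and 0.60. Mdm2 was at 0.052 with counts summed per number and generation in a replicate block. Without TL1 2a and TL2 3, Myc was at -0.075, Sox2 at -1.23, Insig1 at -0.30, Slc25a1 at -0.10, Ifit2 at -0.31 and Il33 at 0.25. Without TL1 3a and TL2 3, Myc was at -0.27, Sox2 at -0.79, Ifit2 at -0.56, Mx1 at -0.90 and Il33 at 0.59.

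Of 39 lists, 8 kept the sign of their median under all 18 settings, which do not include DESeq2 and limma-voom. Sterol synthesis was positive, with medians down to 0.023. The negative lists came near 0 in some settings, with highest medians of -0.027 for cancer stem cell markers, -0.079 for chemokines and cytokines, -0.020 for the EGF family, -0.021 for EMT factors, -0.033 for matrix proteases, -0.25 for neural crest and neuronal genes and -0.78 for skeletal muscle. Scaling moved the median of all genes by less than 0.1. The SE of a log2 change had a median of 0.28, which limits the changes that can be seen.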
